A study of Drosophila melanogaster with 2 samples.

Results

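Autosomal kay peaks in introns are the subject here. They were chosen by position alone: the summit of the peak lay on one of the large autosomal arms or on chromosome 4, more than 500 bp from every annotated transcription start, inside an annotated gene and in no annotated exon. Of the 4350 entries in the authors' pooled list of both replicates, 3854 were autosomal, and 1766 of those met the rule. That is 45.8% (95% Wilson interval 44.3 to 47.4%). The authors title this list peaks and background, as input for a later filter, so an entry called a peak here may be background. Their q-value was 0.05 or lower for 88 of the 1766. Of the other autosomal peaks, 1337 had a summit within 500 bp of a start and are called promoter peaks, 357 lay in exons and 394 between genes. Binding was measured by chromatin immunoprecipitation with sequencing (ChIP-seq) on whole adult male Drosophila melanogaster of unknown age, from 1 transgenic line that stably carries kay joined to GFP at its C-terminal end. The tagged protein was pulled down with an antibody to GFP from sonicated chromatin, in 2 biological replicates that the labels number 1 and 3. Both replicates belong to 1 group, so there is no contrast of conditions, no control library was analysed here, and whole flies do not show which tissue a peak comes from.

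kay is the fly Fos protein, a basic leucine zipper (bZIP) factor that pairs with Jra, the fly Jun protein, to form AP-1. AP-1 acts at the end of the JNK pathway, which responds to stress, wounding and infection and shapes epithelial sheets during development. Introns of fly genes, first introns above all, often hold enhancers, and mammalian AP-1 is known for binding distal enhancers as well as promoters. The Fos and Jun pair recognises TGACTCA, which reads TGAGTCA on the other strand and is called the AP-1 site below. A match to these letters describes the sequence and does not by itself show that the protein touches it.

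The sequences printed first are those under the highest intronic summits that hold an AP-1 site, a minority of the high intronic peaks. They are shown for the peaks that also belong to the authors' optimal list, the short list kept after their irreproducible discovery rate (IDR) step. Of the 12 such peaks 9 are shown, and the sequences of the Khc peak and of 2 shn peaks are not printed. Each runs 5′ to 3′ on the strand that reads TGACTCA, with the site in capitals and 17 bases to either side, from the RefSeq Release 6 genome on dm6 coordinates. The site of ush lies at chr2L:480663-480703 on the minus strand, that of Mad at chr2L:3158815-3158855 on the minus strand, and that of SCaMC at chr3L:12407034-12407074 on the plus strand. The sites of jim at chr3L:22822730-22822770 and of Su(Tpl) at chr3L:19900695-19900735 are on the plus strand. On 3R, those of puc at chr3R:8119974-8120014 and Xrp1 at chr3R:18916964-18917004 are on the plus strand. Those of gish at chr3R:16280118-16280158 and Ada2b at chr3R:8239693-8239733 are on the minus strand.
ush: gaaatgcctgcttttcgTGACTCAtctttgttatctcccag
puc: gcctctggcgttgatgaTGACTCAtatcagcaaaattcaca
gish: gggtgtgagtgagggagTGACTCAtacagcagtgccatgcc
SCaMC: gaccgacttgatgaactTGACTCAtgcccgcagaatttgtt
Mad: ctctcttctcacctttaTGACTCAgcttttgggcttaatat
jim: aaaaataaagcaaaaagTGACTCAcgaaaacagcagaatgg
Ada2b: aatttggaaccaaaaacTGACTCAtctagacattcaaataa
Xrp1: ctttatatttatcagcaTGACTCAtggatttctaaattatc
Su(Tpl): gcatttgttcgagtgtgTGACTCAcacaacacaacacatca

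The distance from summit to site in these peaks was 94 bp in ush, 5 bp in puc, 43 bp in gish, 76 bp in SCaMC, 30 bp in Mad, 14 bp in jim, 13 bp in Ada2b, 88 bp in Xrp1 and 10 bp in Su(Tpl). The puc window is shown whole, because puc encodes the phosphatase that shuts off JNK and is the best known AP-1 target of the fly. It spans 100 bp to either side of the summit in intron 3, at chr3R:8119899-8120099 on the plus strand, with the AP-1 site in capitals. The window also holds GAGAGAG, left in small letters.
puc: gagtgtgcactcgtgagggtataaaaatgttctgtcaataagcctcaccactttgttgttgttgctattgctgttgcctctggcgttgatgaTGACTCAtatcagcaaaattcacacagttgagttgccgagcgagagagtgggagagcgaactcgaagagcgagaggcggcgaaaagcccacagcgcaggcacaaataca

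Not every high peak held the site. The highest intronic peak of all, in spen, has no AP-1 site within 100 bp of its summit, and neither do those of Kr-h1 and REPTOR. The 101 bases around those summits are given on the plus strand for contrast, at chr2L:166671-166771 for spen, chr2L:6088582-6088682 for Kr-h1 and chr3R:24566053-24566153 for REPTOR, with no letters in capitals because none of them holds TGACTCA or the GAGA repeat GAGAGAG.
spen: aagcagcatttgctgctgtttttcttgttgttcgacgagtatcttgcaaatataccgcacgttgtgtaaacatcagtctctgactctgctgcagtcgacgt
Kr-h1: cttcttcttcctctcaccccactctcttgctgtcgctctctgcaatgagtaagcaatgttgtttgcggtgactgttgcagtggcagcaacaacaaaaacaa
REPTOR: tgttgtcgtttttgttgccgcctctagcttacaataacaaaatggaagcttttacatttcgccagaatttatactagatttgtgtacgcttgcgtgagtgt

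The replicates contributed lists of very different length, 2060 peaks in replicate 1 and 13835 in replicate 3. The pooled list was made from the same libraries, so a pooled peak with a peak in each replicate list is partly built in. Each list gives the authors' peak signal, whose scale is not stated and differs between lists, so it serves here to order the peaks of each list and not to compare lists. The sources used here do not state the read depth. Each test below counts peaks as if they were independent, so its p-value says nothing of the variation from fly to fly, and Wilson intervals cover counting error only. All 1766 intronic peaks were 420 bp wide. Of these, 270 overlapped another intronic peak, so that the peaks covered 1629 separate stretches. Summits of overlapping peaks lay at least 199 bp apart, with a median of 215 bp.

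The strongest intronic peaks lay in spen, shn and Khc. The first, in intron 2 of spen (FBgn0016977), which encodes a nuclear RNA-binding protein, had a pooled signal of 337, with 114 in replicate 1 and 226 in replicate 3. The next, in intron 1 of shn (FBgn0003396), a zinc finger factor of the Dpp pathway, had 324, with 166 and 162. The peak in intron 1 of Khc (FBgn0001308), the kinesin heavy chain that carries cargo along microtubules, had 313, with 131 and 179.9. All 3 stood near the top of both lists, ranked from 41 to 59 of 2060 in replicate 1 and from 33 to 45 of 13835 in replicate 3.

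The next peaks lay in dnr1, Kr-h1, ush and REPTOR. The peak of dnr1, a gene known as a brake on the Imd immune pathway, had a pooled signal of 309, with 162 in replicate 1 and 143 in replicate 3. Kr-h1, a zinc finger factor induced by juvenile hormone, had 289, with 175 in replicate 3 and no peak in replicate 1. The peak of ush, whose product binds GATA factors, had 254, with 147 and 103. REPTOR, a bZIP factor that acts when TOR is low, had 244, with 83.3 and 156. Of the 25 highest intronic peaks, only those of Kr-h1 and Trl, the gene of GAGA factor, had no peak in replicate 1.

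After REPTOR in the ranking came the highest peak of puc. Its pooled signal was 236, with 101 in replicate 1 and 135 in replicate 3, and the summit at chr3R:8119999 lay 2726 bp from the nearest start of any gene. The gene tai, which encodes a coactivator of the ecdysone receptor, held the next peak, with a pooled signal of 229, 28841 bp from the nearest start. A further tai peak had 217 and lay 988 bp from a start. Atg17, an autophagy gene, had 218, with 119 and 92.1.

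The rest of the 25 highest peaks had pooled signals from 163 to 208. They lay in gish, a casein kinase gene, lqf, the epsin gene of endocytosis, Trl, Dhc64C, the heavy chain of cytoplasmic dynein, mts, the catalytic subunit of phosphatase 2A, tara, SCaMC, a mitochondrial carrier gene, spin, a lysosomal transporter gene, Mad, the Smad protein of the Dpp pathway, par-1, a polarity kinase gene, HmgZ, Cyt-c-p, the cytochrome c gene, and shn with a further pair. The HmgZ summit also lies inside HmgD. Host introns differed widely in length, from 756 bp at the Atg17 peak to 11126 bp at the spen peak and 42174 bp at the higher tai peak.

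**Figure D1:**
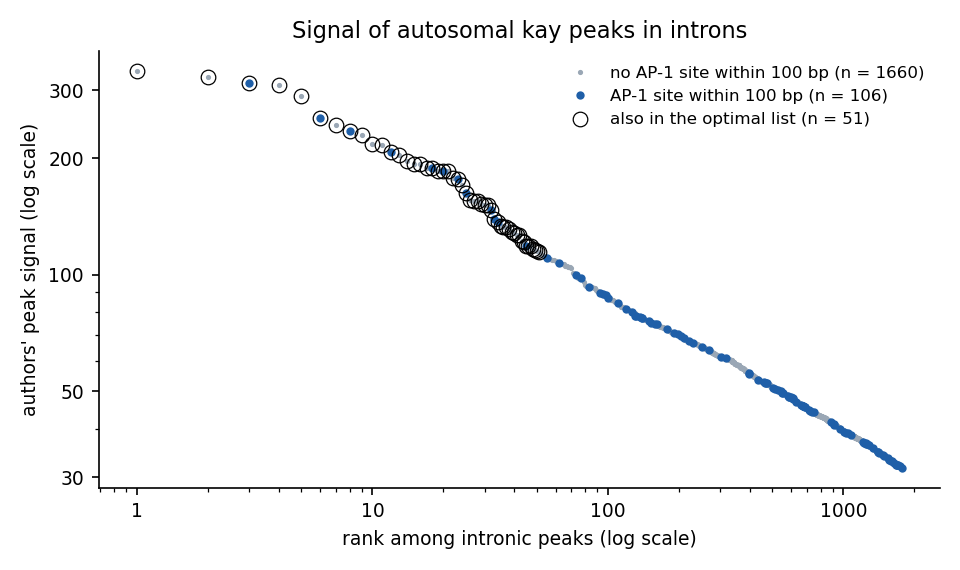
The authors' pooled peak signal (log scale) is plotted against rank for all 1766 intronic peaks; blue points have an AP-1 site within 100 bp of the summit and open circles mark the 51 peaks of the optimal list. Signals run from 337 down to 31.7, and the optimal peaks are the highest ones.

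Intronic peaks stood lower in the ranking than promoter peaks. Their signal ran from 31.7 to 337 with a median of 41.7, and that of promoter peaks from 31.7 to 403 with a median of 47.1. Among the 500 highest autosomal peaks were 173 intronic ones, 9.80% of their class, and 268 promoter ones, 20.04% of theirs (two-sided Fisher's exact p = 1.09e-15), beside 13.0% of all autosomal peaks. The authors' q-value was 0.05 or lower for 88 intronic peaks, 4.98%, and for 6.85% of all autosomal peaks. The optimal list held 51 intronic peaks, 33.3% of its 153 autosomal ones (26.4 to 41.1%). By the same rule the list of replicate 1 alone gave 802 intronic peaks and that of replicate 3, shortened to the length of the pooled list, gave 1619.

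A smaller share of intronic than of promoter peaks was seen in both replicates. A peak of replicate 3 overlapped 1651 of the 1766, 93.5%, a peak of replicate 1 overlapped 733, 41.5%, and 41 had neither, 2.32%, close to the 94.0%, 43.5% and 2.08% of all autosomal peaks. Both lists had a peak at 659 intronic peaks, 37.3% (35.1 to 39.6%), and at 641 promoter peaks, 47.9% (45.3 to 50.6%), against 39.5% of all autosomal peaks (two-sided Fisher's exact p = 3.22e-09). The share fell with rank, from 96% of the 50 highest intronic peaks to 13.8% of those ranked 1001 to 1766. The direction between the classes turned among high peaks. With the q-value at most 0.05, the intronic share was the higher by 10.3 percentage points (Fisher's exact p = 0.0160), and in a comparison added after the data were seen, the 200 highest intronic peaks stood 6.75 points above promoter peaks of the same range of ranks (Fisher's exact p = 0.0590). Overlapping neighbours can share a replicate peak: the 733 peaks lay over 637 peaks of replicate 1, and the 1651 over 1518 of replicate 3.

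**Figure D2:**
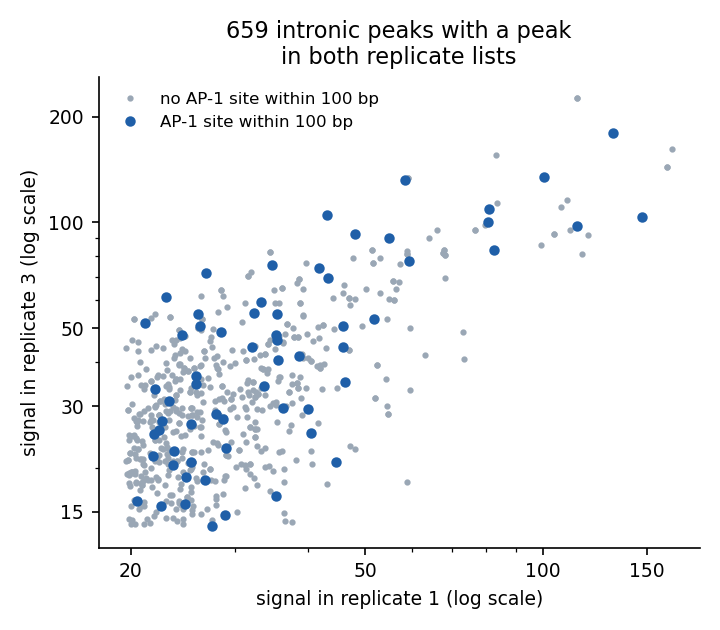
Each point is one of the 659 intronic peaks with a peak in both lists, with the signal in replicate 1 on the x axis and in replicate 3 on the y axis, both on log scales and each on its own list's scale; blue points have an AP-1 site. Spearman's rho was 0.56 over these peaks, with wide scatter.

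Over those 659 peaks Spearman's rho of the signals was 0.56, a description across peaks that share 2 libraries. Over the 641 promoter peaks it was 0.60. Among intronic peaks seen in both replicates 62 of 659 had an AP-1 site within 100 bp of the summit, 9.41% (7.41 to 11.9%). Among those seen only in replicate 3 it was 39 of 992, 3.93% (2.89 to 5.33%).

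The AP-1 site lay under a minority of intronic peaks, and more often at their summits than 1000 bp away. A site lay no more than 100 bp from the summit in 106 of the 1766, 6.00% (4.99 to 7.21%), beside 5.53% of all autosomal peaks and 1.89% of the 211793 windows of 201 bp that tile the intron sequence open to the rule. Windows of the same length centred on annotated starts held it in 1.75%. The same window 1000 bp to the right of each summit held the site in 50 peaks, 2.83%, which was fewer than at the summit (two-sided exact McNemar p = 5.60e-06, with 103 peaks having it at the summit alone and 47 at the flank alone). The looser string TGANTCA, with any base in the middle, lay in 11.4% of intronic peaks, 11.2% of promoter peaks and 10.7% of all autosomal peaks, and in 4.45% of the intron windows.

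Intronic and promoter peaks did not differ detectably in the site. Promoter peaks had it in 84 of 1337, 6.28% (5.10 to 7.71%), so that the intronic share was lower by 0.28 percentage points (two-sided Fisher's exact p = 0.763, Benjamini-Hochberg adjusted over 13 motifs to 1). Exon peaks had it in 2.80% and intergenic peaks in 3.30%. The sign of the difference between introns and promoters changed with the peak list and the distance that defines a promoter.

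The site followed the signal. It lay in 75 of the 883 intronic peaks in the upper part of the ranking, split at the median, 8.49%, and in 31 of the 883 in the lower part, 3.51% (two-sided Fisher's exact p = 1.28e-05). In the list of replicate 1 alone the difference was 3.74 percentage points and missed the threshold (Fisher's exact p = 0.0535), and in that of replicate 3 it was 4.33 points (Fisher's exact p = 1.45e-04). Among the 200 highest it was 36, 18.0%, against 4.47% of the rest (Fisher's exact p = 1.15e-10). The share was 24% in ranks 1 to 50, 18.0% in ranks 51 to 100 and 15% in ranks 101 to 200, and then 5.00%, 5.60% and 3.52% in ranks 201 to 500, 501 to 1000 and 1001 to 1766. All 6 shares were above the 1.89% of the intron windows. A higher share among high peaks was not particular to this site. GAGAGAG lay in 12.5% of the 200 highest and 3.96% of the rest, CACACACA in 12.5% and 4.73%, and TGTTTAC in 13.5% and 8.81%. Other strings stood lower among the 200 highest, such as TATTTATA with 6.50% against 9.45% and TTCNNGAA with 3.50% against 5.43%. The median GC content of the 201 bp windows moved with rank too, from 41.0% in the first 50 to 34.3% in the last range, and its part in the result was not tested.

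**Figure D3:**
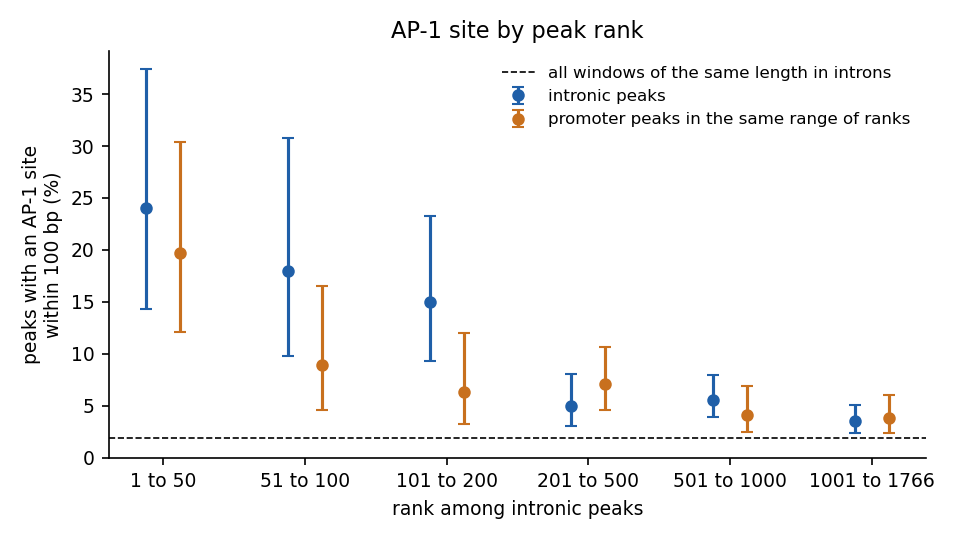
The share of peaks with an AP-1 site within 100 bp of the summit is shown by rank for intronic peaks (blue) and for promoter peaks of the same ranges (orange), with 95% Wilson intervals, and the dashed line marks all intron windows at 1.89%. Intronic shares fall from 24% to 3.52%, and promoter shares from 19.7% to 3.79%.

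Among high peaks the share in introns and at promoters depended on how the peaks were matched. Promoter peaks ranked alongside the first 3 ranges of intronic peaks had the site in 19.7%, 8.89% and 6.35%. In the comparison over matched ranks, added after the data were seen, 18.0% of the 200 highest intronic peaks and 10.4% of 288 promoter peaks had it (two-sided Fisher's exact p = 0.0216). In the optimal list 12 of 51 intronic peaks had it, 23.5% (14.0 to 36.8%), and 22.8% of 79 promoter peaks (Fisher's exact p = 1). At a q-value of 0.05 or lower it was 19.3% and 17.02% (Fisher's exact p = 0.724). The 12 peaks lay in Khc, ush, puc, gish, SCaMC, Mad, jim, a zinc finger gene, Ada2b, whose product belongs to the SAGA complex, Xrp1, a bZIP factor of the stress response, Su(Tpl), the fly ELL elongation factor, and 2 peaks of shn.

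Sites gathered near the summits. The 106 peaks held 108 sites, the median distance to the summit being 40 bp, 29 peaks having one within 25 bp and 67 within 50 bp. These peaks were picked for a site within 100 bp, so such distances cannot by themselves show gathering. Counted out to 1000 bp, the 200 highest intronic peaks had 125 sites per 1000 peaks in the first 49 bp and 65.0 in the next 50 bp. All intronic peaks had 37.4 and 24.3, and promoter peaks had 40.4 and 23.2. From 150 to 999 bp out, the bins of all intronic peaks ran from 8.49 to 24.3, the highest at 650 to 699 bp, and those of the 200 highest from 0 to 35.0. Few of the sites that introns offer were under a peak: of 4378 AP-1 sites in the intron sequence open to the rule, 108 lay within 100 bp of an intronic summit, 2.47%.

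**Figure D4:**
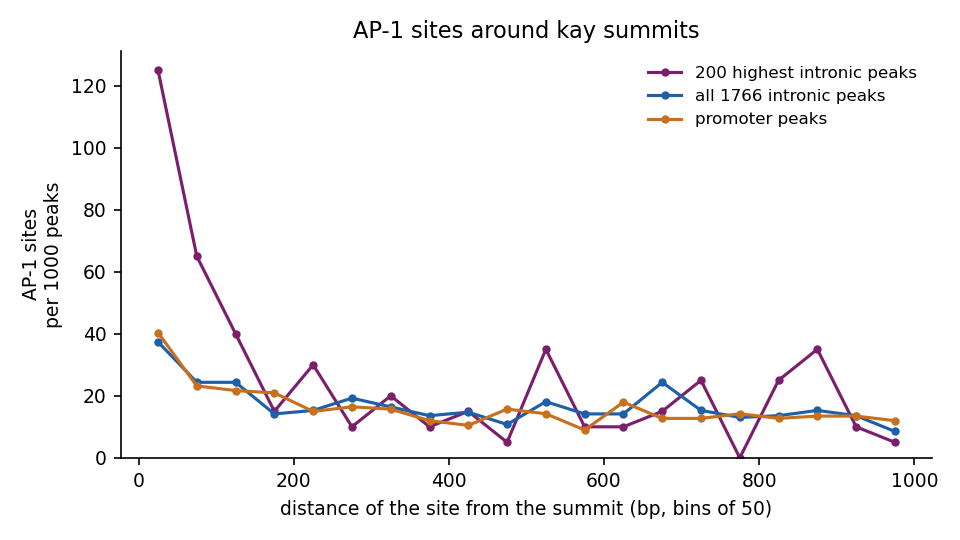
AP-1 sites per 1000 peaks are plotted by distance from the summit in bins of 50 bp, for the 200 highest intronic peaks (purple), all 1766 intronic peaks (blue) and promoter peaks (orange). The purple line starts at 125 and the other lines at 37.4 and 40.4, and beyond 150 bp the lines vary between 0 and 35.0, 8.49 and 24.3, and 8.98 and 20.9.

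Bases next to the site were compared with those of the 4270 AP-1 sites in introns away from summits. An A before and a T after the site, which extends the palindrome, occurred at 16 of 108 sites under peaks, 14.8% (9.33 to 22.7%), and at 307 of the others, 7.19% (two-sided Fisher's exact p = 0.00746). This missed the threshold once adjusted over the 17 tests of neighbouring bases, with an adjusted p of 0.127, and the test was chosen after the data were seen.

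Of the other 12 motifs, the GAGA repeat and the DRE were rarer in introns than at promoters. GAGAGAG, the site of GAGA factor, lay within 100 bp of 87 intronic summits, 4.93% (4.01 to 6.04%), and of 97 promoter summits, 7.26% (5.98 to 8.77%), beside 5.55% of all autosomal peaks (two-sided Fisher's exact p = 0.00717, adjusted p = 0.0466). In all intron windows it lay in 2.57%, in windows at all annotated starts in 4.24%, and in the 200 highest intronic peaks in 12.5%. The window 1000 bp to the right of each intronic summit held GAGAGAG in 76 peaks, 4.30%, near the 4.93% at the summits, and this difference was not tested. TATCGATA, the DNA replication related element known from promoters of growth genes, lay at 17 intronic summits, 0.963%, and 34 promoter summits, 2.54%, beside 1.45% of all autosomal peaks (two-sided Fisher's exact p = 8.64e-04, adjusted p = 0.0112). It lay in 4.93% of windows at all annotated starts and 0.430% of intron windows. The difference in GAGAGAG changed sign among the peaks of the optimal list, where introns stood 10.2 points above promoters. In the lists of replicate 1 and replicate 3 alone introns were lower by 2.29 and 0.994 points, and neither passed (Fisher's exact p = 0.0881 and 0.261).

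No other motif separated intronic from promoter summits past the adjusted threshold. The forkhead string TGTTTAC lay at 9.34% of intronic summits and in 4.42% of intron windows, the Mef2 string TATTTATA at 9.12% and 4.46%, and the GATA string AGATAAG at 5.78% and 2.66%. TGACGTCA, the site of CREB-like bZIP factors, lay at 13 summits, 0.736%, and in 0.318% of windows. TTGCGCAA, CACGTG and CACACACA lay at 0.736%, 2.72% and 5.61% of summits, beside 0.398%, 2.29% and 4.55% of windows. CAGGTAG and TTCCNGGAA lay at 0.680% and 0.227% of summits, beside 0.958% and 0.337% of windows, and TTCNNGAA lay at 5.21% and in 4.92%. In the windows 1000 bp to the right of the summits, TGTTTAC, TATTTATA and AGATAAG lay in 5.38%, 5.49% and 3.23% of peaks. There TGACGTCA had 0.623%, and TTGCGCAA, CACGTG and CACACACA had 0.510%, 2.15% and 5.04%. CAGGTAG, TTCCNGGAA and TTCNNGAA had 1.02%, 0.170% and 6.29%. No test was run against these windows. The median GC content was 35.8% at intronic summits and 40.3% in intron windows.

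Intronic peaks crowded toward gene starts even beyond the 500 bp that the rule sets aside. Per Mb of intron open to the rule there were 100.4 peaks at 500 to 1000 bp from the nearest start, 73.5 at 1000 to 2000 bp, 49.0 at 2000 to 5000 bp, 34.4 at 5000 to 10000 bp, 21.0 at 10000 to 20000 bp and 4.52 beyond. The mean over all 42.6 Mb was 41.4. The share with an AP-1 site was 6.70%, 7.69%, 6.24%, 4.29% and 3.50% in the first 5 ranges. It was 0 of 33 peaks beyond 20000 bp. That allows a share of up to 9.09%, taken as 3 over the number of peaks, or 10.4% by the Wilson interval.

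The 500 bp limit itself had few peaks beside it. Inside an intron but 483 to 500 bp from a start, and so outside the rule, lay 18 summits with signals from 31.8 to 98.2 and a median of 43.4, and 0 of them had an AP-1 site. At 502 to 520 bp lay 10 intronic peaks with signals from 31.9 to 86.0 and a median of 54.8, and 3 of them had the site.

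First introns held most of the peaks. Of the 1766 peaks, 1161 lay in the first intron of at least 1 transcript of the gene, 65.7% (63.5 to 67.9%), beside 42.3% of the intron bases open to the rule. Among the 200 highest peaks it was 79.0%, and in the optimal list 44 of 51. Counting only the longest transcript of each gene gave 46.8% of peaks and 31.3% of bases. Introns of 2000 to 5000 bp had the highest density, 71.4 peaks per Mb, those of up to 2000 bp 53.6 and those over 20000 bp 18.9.

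**Figure D5:**
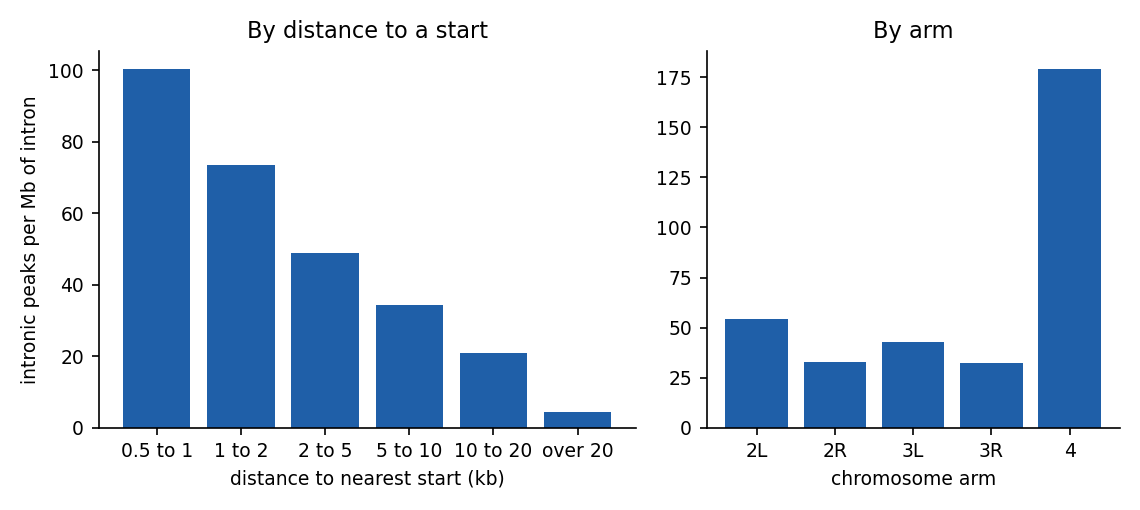
Bars give intronic peaks per Mb of the intron sequence open to the rule, by distance to the nearest start (left) and by chromosome arm (right). Density falls from 100.4 to 4.52 with distance, and chromosome 4 stands at 179 against 32.5 to 54.1 on the large arms.

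Chromosome 4, small and largely heterochromatic, had the densest intronic peaks and the lowest median signal. It held 103 peaks in 0.575 Mb of intron, 179 per Mb, beside 54.1 on 2L, 42.8 on 3L, 33.0 on 2R and 32.5 on 3R. Its median signal was 38.7, the lowest of the 5, while the others ranged from 40.1 to 42.8. Of its 103 peaks 2 were among the 500 highest autosomal peaks, 0 in the optimal list and 1, in pan, had an AP-1 site. The summit of that pan peak lies in an annotated transposable element and in sequence masked as repeats. Both replicates had a peak at 25.2% of the 103 peaks, and 35.7 to 39.4% on the large arms. Summits in sequence masked as repeats made up 37.9% there, close to the 36.9% of its intron sequence that is masked, and whether masking bears on the density was not tested.

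Over all arms, the place of summits in repeats was set beside that of intron sequence, with no test. The summit base was masked in 24.3% of them (22.3 to 26.3%) and at the centre of 23.03% of all intron windows. Inside annotated transposable elements lay 24 summits, 1.36%, against 7.22% of window centres. The sources used here do not state how reads that map to several places were treated. AP-1 sites were found at 5.13% of masked and 6.28% of unmasked summits.

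The peaks lay in 812 host genes, 802 of them protein-coding, and 102 summits lay inside more than 1 gene. One peak each was found in 443 genes, and 369 held 2 or more. The 81 genes with 5 or more held 561 peaks. Counting every gene that contains a summit, 848 of 7602 protein-coding genes with intron open to the rule held a peak, 11.2%, and their median length of such intron was 9.38 kb against 0.435 kb over all. The share rose with that length, from 1.11% of genes with up to 1 kb to 15.4%, 35.6%, 38.0% and 47.0% for genes with up to 5 kb, up to 10 kb, up to 30 kb and more than 30 kb. Of the host genes 317 also had a promoter peak at a start of their own, 39.0%. Of all protein-coding genes with such intron 11.4% had one, but these have far less intron, as above, and the shares were not matched on length.

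The most intronic peaks in 1 gene were found in bun, Pdp1 and shn, all with long introns of 41.7 kb or more open to the rule. bun, a TSC22 family gene with 70.3 kb, held 22, with signals from 31.8 to 82.6. Pdp1, the bZIP activator of the circadian clock, held 19, from 34.7 to 108, 10 of them seen in both replicates. shn held 17, from 34.4 to 324, 14 of them in both, and 3 in the optimal list. So shn combined many peaks with a high summit, and bun had none in the optimal list. In Pdp1 and shn some peaks counted as seen in both replicates overlap a neighbour and share its replicate peaks.

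The next genes by number of peaks were tai and SNF4Agamma. tai held 13, 0 of them with an AP-1 site, and SNF4Agamma, the gamma subunit of AMP-activated kinase, held 13, with the highest at 91.3. spen held 10, of which all but the first were at or below 65.6, and ftz-f1, a nuclear receptor gene, held 10, up to 116. Eip93F, an ecdysone-induced factor, held 10, up to 77.7. puc held 9 within 11.4 kb of intron, which is 7.89 per 10 kb and compares with 3.13 in bun. Some hosts with fewer peaks were denser than puc, such as Xrp1 with 11.5 and SCaMC with 10.8 per 10 kb. tara held 9, as did vri, cic, InR and Bsg.

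The peaks of puc show how one gene's introns filled. Besides the peak of 236 there were peaks of 87.0, 67.5, 66.3, 61.9, 58.3, 46.1, 45.1 and 39.2, of which 6 in all were seen in both replicates. Those of 61.9 and 46.1 overlap and share their replicate peaks. Only the highest had an AP-1 site within 100 bp. The peak of 39.2 had a signal of 15.5 in replicate 3 and no peak in replicate 1.

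Clock genes and ecdysone and juvenile hormone genes are given first. The lists below were chosen with earlier results known, so counts are given with no test, beside the sum, over the list, of the share of protein-coding genes of like intron length that hold a peak. Of 10 clock genes with intron open to the rule, 8 held a peak, where genes of like intron length would give 2.60. They were dco, a clock kinase gene, with 133, Pdp1 with 108, the repressor gene vri with 92.2, the feedback gene cwo with 85.1, and tws, Clk, cry and tim from 58.5 down to 37.4. Of 12 ecdysone and juvenile hormone genes 9 held a peak, where length gives 5.16. They were Kr-h1 with 289, tai with 229, Eip75B with 116, ftz-f1 with 116, and Eip93F, Eip74EF, EcR, E23 and Hr3 from 77.7 down to 35.5.

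bZIP genes and known AP-1 targets are the lists nearest to kay itself. Of 12 bZIP genes 7 held a peak, where length gives 3.27. REPTOR had 244, Xrp1 137, Pdp1 108, vri 92.2, cnc, the fly Nrf2, 87.1, and CrebA and crc 49.6 and 35.9. Of 17 AP-1 and JNK targets 9 did, where length gives 5.95, with puc at 236, ftz-f1 at 116, the filamin gene cher at 81.8 and the receptor gene Pvr at 62.1. In the JNK cascade it was 5 of 11 against 2.60, and besides puc the highest was wnd, a kinase gene, with 38.7. So among the 5 cascade genes with an intronic peak, puc stood far above wnd, Src42A, egr and msn. The highest intronic peaks of those were 38.7, 36.5, 32.9 and 32.3. Promoter peaks and genes off the autosomes are not counted here.

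Signalling pathways that pattern tissues make up the next lists. In the Dpp pathway 6 of 11 genes held one, where length gives 2.90, with shn at 324, Mad at 185, the inhibitory Smad gene Dad at 60.02 and the receptor gene tkv at 48.4. In EGFR and Ras signalling it was 7 of 14 against 3.72, with the repressor genes aop and cic at 97.8 and 77.6, the MAP kinase gene rl at 51.1 and pnt at 42.5. In the Wnt pathway 5 of 9 did against 3.50, led by nkd at 77.4 and pan at 71.7. In the Hippo pathway 4 of 10 did against 2.34, led by wts at 92.8 and Diap1 at 70.2. In the Notch pathway 2 of 9 did against 1.67, neur at 90.02 and kuz at 61.7.

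Among lists of cell structure and defence, microtubule motors had 5 of 8 where length gives 1.43, with Khc at 313, Dhc64C at 193, milt at 63.2 and Kif3C at 55.4. Actin genes had 6 of 15 against 3.30, led by cher at 81.8, Pak3 at 73.6, Rho1 at 65.2 and chic, the profilin gene, at 58.4. The Rho1 peak had its AP-1 site on the summit base. Innate immunity had 7 of 15 against 2.62, with cact, the fly IkappaB, at 127, the receptor gene Tl at 78.1, PGRP-LC at 67.6 and dl at 67.4. Oxidative stress had 3 of 6 against 0.722, cnc at 87.1, its inhibitor gene Keap1 at 58.9 and the catalase gene Cat at 52.3.

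For the remaining lists, of tissue genes, insulin signalling and chromatin, counts lay on either side of those given by length. None of 8 neuronal genes held a peak, where length gives 3.08. A count of 0 of 8 allows a share of up to 37.5%, taken roughly as 3 over the number of genes. Muscle genes had 3 of 14 against 3.12, Mef2 at 98.2, Tm1 at 61.4 and Mp20 at 32.0. Blood cell genes had 2 of 12 against 2.33, ush at 254 and Pvr at 62.1. Testis genes had 2 of 10 against 1.45, gut genes 4 of 7 against 2.82, insulin and TOR genes 2 of 14 against 2.33, and chromatin and Polycomb genes 4 of 14 against 2.77. Their highest peaks were zfh1 at 36.6, Myo31DF at 80.3, foxo at 72.7 and Trl at 197.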

How the data were processed

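Peak lists of 1 group, 2 biological replicates, were used on dm6. Per the deposited listing of files, the list of a replicate derives from its own alignments with 1 control file, and the pooled and optimal lists from both libraries. The pooled list is titled as peaks and background that were the input for IDR. The sources used here state no aligner, peak caller, settings or read depth. The deposited lists hold the authors' signal per peak, their −log10 q-value and the summit offset in bp. The dm3 lists were not used, for want of a dm3 annotation.

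Summits were classed against Ensembl release 115 without transposable elements, in the order promoter, exon, intron, intergenic. The Release 6 sequence 100 bp to either side of each summit was searched for motifs in both orientations, and overlap between lists needed 1 bp. Intron open to the rule, 42.6 Mb, was tiled with 201 bp windows. Of 321 list symbols 13 were not matched, 5 matched by synonym and 56 lay off the autosomes. Python 3.11.15, scipy 1.17.1 and statsmodels 0.14.6 were used. The classing of summits, the motif search, the overlap of lists and Fisher's exact test were tried on simulated data, and the other tests were not.

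Members, lists and tests were chosen with earlier results of these data known. Named genes are those of the 25 highest peaks, of optimal peaks with the AP-1 site, the 10 with most peaks, and up to 4 per list; further names from the lists and the other tied genes were added after their values were seen. Alternatives were other peak lists, promoter distances, windows, flanks and host genes. After the data were seen, leaving out chromosome 4 or masked summits, matched ranks and 1 peak per overlapping group were added.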

Additional observations from a re-analysis of the deposited data

How the results depend on the processing

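The difference in the AP-1 site between summits and flanks kept its direction and its call under all 15 alternatives, and the lower share of intronic peaks among the highest peaks under all 8. The AP-1 difference between introns and promoters, which missed the threshold, turned from -0.28 percentage points to 0.0265 at a promoter distance of 250 bp, 0.745 in the optimal list, 2.30 at a q-value of at most 0.05, 7.58 over the same range of ranks and 0.0715 with 1 peak per overlapping group. The GAGAGAG difference of -2.33 points turned to 10.2 in the optimal list and 2.86 at q at most 0.05, and missed the threshold with a 50 bp window at -1.18 points. Leaving out a replicate, it ranged from -2.29 to -0.994, unadjusted p = 0.0881 and 0.261 by Fisher's exact test. The AP-1 excess of the upper part by signal was 16.6 points in the optimal list (Fisher's exact p = 0.199) and 11.4 at q at most 0.05 (p = 0.280, Fisher's exact). It ranged from 3.74 to 4.33 leaving out a replicate, with Fisher's exact p = 0.0535 without replicate 3. The difference in peaks seen by both replicates turned to 8.74, 10.3 and 6.75 points in the optimal list, at q at most 0.05 and over the same range of ranks. The first intron share moved to 61.2% at a promoter distance of 1000 bp, 86.3% in the optimal list, 86.4% at q at most 0.05 and 46.8% by the longest transcript, and ranged from 68.5 to 73.1% leaving out a replicate. The number of intronic peaks was 51 in the optimal list, 88 at q at most 0.05 and 802 to 1619 leaving out a replicate. The optimal and q lists hold fewer peaks, and those stand high in the ranking. The cause of these changes was not tested. The 500 highest could not be compared in those lists, nor the peaks seen by both without a replicate. No paired analysis was possible because there is 1 group of 2 samples. Read depth, not given in the sources used here, limits how far weak peaks can be read.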
